A study of Homo sapiens with 31 samples.

Results

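Nutlin-3 and Rita, a pair of small molecules that free the tumour suppressor p53 from its ubiquitin ligase MDM2 in different ways, were compared directly in H460, a human cell line from a non-small cell lung cancer. The comparison was defined by treatment labels alone and holds 7 of the 31 libraries of the series: 3 of cells given Nutlin-3 at 30 µM and 4 of cells given Rita at 50 µM. All were collected at 6 h, and poly(A) RNA was sequenced. Untreated H460 cells served as Control (n = 4), with no vehicle named. Another 8 libraries came from cells that received either drug together with B87 (an inhibitor of respiratory complex I, 1 µM) and DMKG (dimethyl α-ketoglutarate, 5 mM), in groups of 4 named B87+DMKG+Nutlin-3 and B87+DMKG+Rita. The study set these treatments side by side for their effect on transcription in the setting of cell death. Each drug was used at 1 dose and 1 time in 1 cell line, and the doses differ, so that drug and dose cannot be told apart. A library came from 2 pooled wells, and separate experiments are not named, so p-values measure the spread between these libraries, which may be technical.

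MDM2 binds the transactivation domain of p53 and marks it for degradation. Nutlin-3 fills the pocket of MDM2 that p53 enters, whereas Rita is described as binding p53 itself, and other actions, among them DNA damage signalling and inhibition of transcription, have been ascribed to it. Stabilised p53 binds response elements near its target genes and raises genes of cell cycle arrest (CDKN1A), of apoptosis (BBC3, FAS, PMAIP1), of DNA repair, and of its own negative feedback (MDM2, PPM1D). The p21 protein made from CDKN1A inhibits cyclin-dependent kinases and so lowers the E2F-driven genes of DNA replication.

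Values below are read counts that the authors normalized for library depth. A difference is that of mean log2(normalized read count + 1), always Nutlin-3 minus Rita unless another pair is named, and the number after ± is its standard error from limma, a linear model fitted across all rows. A gene is called higher in a group where the Benjamini-Hochberg adjusted p of that fit was under 0.05 over the 16259 table rows tested. The whole reads behind the values numbered 50.7 M to 75.7 M per library with Nutlin-3 and 61.1 M to 82.5 M with Rita. Log2 values of libraries of the same drug correlated at 0.979 to 0.985 (Nutlin-3) and 0.986 to 0.993 (Rita). Nutlin-3 replicate 1 was the Nutlin-3 library nearest to Rita, with correlations of 0.964 to 0.966 against 0.946 to 0.957 for the other two. The mitochondrial genome gave 2.42%, 4.33% and 5.39% of the normalized counts in Nutlin-3 replicates 1 to 3 and 2.69% to 4.76% in the Rita libraries, against 1.49% to 2.15% in Control; its part in the results was not tested. Of 10 epithelial markers 2 had means under 10, and the sums were 209135 to 277931 (Nutlin-3) and 264319 to 292510 (Rita). Markers of endothelial cells summed to 1510 to 1937 against 2706 to 2940, with 7 of 8 under 10 in both. Leukocyte markers summed to 135 to 150 against 187 to 271 (7 of 9 under 10), and fibroblast markers to 2344 to 2780 against 1805 to 2075 (3 and 4 of 8 under 10).

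The drugs left very different transcriptomes. Of the rows tested, 8321 differed between Nutlin-3 and Rita, which is 51.2%: 4028 (24.8%) were higher with Nutlin-3 and 4293 (26.4%) with Rita, around a median difference of -0.03. The lowest Nutlin-3 value lay above every Rita value in 3949 rows (24.3%) and the highest lay below every Rita value in 3948 (24.3%). Differences of at least 1 on the log2 scale were called in 2478 rows (15.2%), 1438 higher with Nutlin-3 (8.84%) and 1040 with Rita (6.4%). With every library scaled to the same total, the share of calls higher in Nutlin-3 was 53.6% against 48.4%. Leaving out 1 library gave 6927 calls (without Nutlin-3 replicate 3) to 8629 (without Nutlin-3 replicate 1). Against Control, 39.1% of rows were called with Nutlin-3 and 52.1% with Rita. These comparisons share libraries with each other and with the direct one, so their values are given side by side only, and scaling to the same total moved their median by -0.13 (Nutlin-3) and -0.17 (Rita) and their share of calls that rose from 47.2% to 30.5% and from 49.4% to 30.9%.

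The regulators of p53 had the highest median difference of the 4 p53 lists. MDM2 (chromosome 12, 69195239 to 69239324, hg19) read 61919, 76151 and 79678 in the 3 Nutlin-3 libraries and 11500.3, 9969, 11178 and 11749.5 in the 4 Rita libraries. The groups lay far apart, and Rita sat nearer to the Control libraries, which read 6691, 6062, 6538 and 6808. The difference was 2.70 ± 0.09, adjusted p = 1.2e-19, a 6.51-fold gap; against Control MDM2 rose by 3.47 with Nutlin-3 and by 0.76 with Rita. PPM1D, the phosphatase WIP1 that switches p53 signalling off, read 2062, 2294 and 2086 against 1207, 1207, 1189 and 1251 (0.82 ± 0.09, adjusted p = 8.8e-09). MDM4, the MDM2 paralogue that blocks p53 without degrading it, was also higher with Nutlin-3 (0.83 ± 0.14). TP53INP1, which cooperates with p53 and takes part in autophagy, read 1497, 1620.4 and 1509.8 against 318, 357, 341 and 323 (2.20 ± 0.19, adjusted p = 4.3e-11). Of 12 tested members of the p53 feedback list, 9 were higher with Nutlin-3 (24.8% of all rows), 2 with Rita (26.4%) and 1 was not called, with a median difference of 0.91.

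Genes of growth arrest were split between the drugs. CDKN1A (chromosome 6, 36644237 to 36655114), which encodes the cyclin-dependent kinase inhibitor p21, read 91711, 80660.2 and 80394 with Nutlin-3, 27938, 30317, 30468 and 28088 with Rita and 4173, 4669, 4472 and 4342 in Control. It was raised strongly by both drugs, by 4.25 with Nutlin-3 and 2.73 with Rita on the log2 scale against Control, and stayed 2.88-fold higher with Nutlin-3 (1.53 ± 0.11, adjusted p = 4.5e-13). BTG2, an antiproliferative p53 target, read 23208, 23305 and 27224 against 11065, 11843, 12796 and 15230.0 (0.96 ± 0.11, adjusted p = 9.3e-09). GADD45A, a stress sensor that binds PCNA and p21, read 15814, 19829 and 21461 against 10160.4, 10166, 10194 and 13626 (0.79 ± 0.14, adjusted p = 1.9e-05). Rita replicate 4 was the highest Rita library for both of these genes, and the groups did not overlap (24.3% of all rows had Nutlin-3 wholly above Rita). PRDM1, a transcriptional repressor, was higher with Nutlin-3 too (0.92 ± 0.13). The reverse held for KLF4, a Krüppel-like factor that can arrest the cycle, which read 3564, 2676 and 2388 with Nutlin-3 and 6443, 6467, 6098 and 4980.1 with Rita (-1.07 ± 0.21, adjusted p = 8.7e-05), and for BTG1 (-0.46 ± 0.16). Of 13 tested members 7 were higher with Nutlin-3 (24.8% of all rows) and 6 with Rita (26.4%), with a median of 0.27. Without Nutlin-3 replicate 2 the counts were 4 and 5.

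FAS and most of the apoptosis targets of p53 were higher with Nutlin-3, while PMAIP1 was among those higher with Rita. FAS (chromosome 10, 90729553 to 90776817), the receptor of FAS ligand, read 1482, 1814 and 1948 with Nutlin-3 and 304, 295, 318 and 375 with Rita. The Rita values lay among and just above those of Control (271, 304, 319.9 and 284), and the drugs differed 5.39-fold (2.43 ± 0.15, adjusted p = 1.8e-14). The receptors of TRAIL did not move as one. TNFRSF10B (DR5), which carries a death domain, read 6415, 5232 and 4779 against 4576, 4524, 4069.9 and 3216, a small difference (0.42 ± 0.15, adjusted p = 0.016) that missed the threshold without Nutlin-3 replicate 1 (0.30) or without Rita replicate 4 (0.31). The decoy receptor TNFRSF10C was higher with Nutlin-3 (1.86 ± 0.39), and TNFRSF10D, the decoy with a truncated death domain, was higher with Rita, at 288, 277 and 289 against 810.4, 992, 913 and 788 (-1.61 ± 0.26, adjusted p = 6.1e-06).

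Within the mitochondrial arm of apoptosis the BH3-only genes PMAIP1 and BBC3 went in opposite directions. PMAIP1 (NOXA, chromosome 18, 57567192 to 57571538), which neutralises MCL1, read 3016, 3614 and 4113 with Nutlin-3 and 10614, 10725, 10619.5 and 11624 with Rita. No Nutlin-3 library came near the Rita range (-1.62 ± 0.16, adjusted p = 1.6e-09), and both drugs raised it against Control, by 0.95 and 2.56. BBC3 (PUMA), which binds all anti-apoptotic BCL2 proteins, read 2313, 1506 and 1388 against 940.3, 993, 980.1 and 898 (0.83 ± 0.20, adjusted p = 0.00075). BAX, the pore-forming effector, was higher with Nutlin-3 (0.62 ± 0.10), as were APAF1, the scaffold of the apoptosome (2.14 ± 0.15), TP53I3, an oxidoreductase (1.18 ± 0.11), and SPATA18, which acts in mitochondrial quality control (1.91 ± 0.31). APAF1 read 1074, 1247 and 1110.0 with Nutlin-3, 263, 224, 282 and 269 with Rita and 1013, 737, 959.6 and 988 in Control, so that the Rita group alone stood apart: the fall with Rita against Control (-1.82) was called and the difference of Nutlin-3 from Control (0.32) was not. Of 19 tested members of the p53 apoptosis list 12 were higher with Nutlin-3 (24.8% of all rows) and 5 with Rita (26.4%), with a median of 0.60.

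The wider BCL2 family and inhibitors of apoptosis were balanced, with 8 of 21 members higher with each drug and a median of 0.02. Over all rows 24.8% were higher with Nutlin-3 and 26.4% with Rita. Higher with Rita were BCL2L11 (BIM), a BH3-only protein that read 759, 888 and 820.1 against 2125, 2012, 2065 and 2271 (-1.37 ± 0.10, adjusted p = 6.0e-13), and BIK, at low counts (4.83, 0 and 2.42 against 31.4, 43.9, 27.5 and 20.9). BCL2, the founding anti-apoptotic member, read 269.6, 256 and 319 with Nutlin-3 and 123, 98.3, 99 and 151 with Rita (1.27 ± 0.19, adjusted p = 2.5e-06), against 339, 331, 326 and 382 in Control. MCL1, the partner of NOXA, was not called (0.22 ± 0.17, adjusted p = 0.29).

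**Figure D1:**
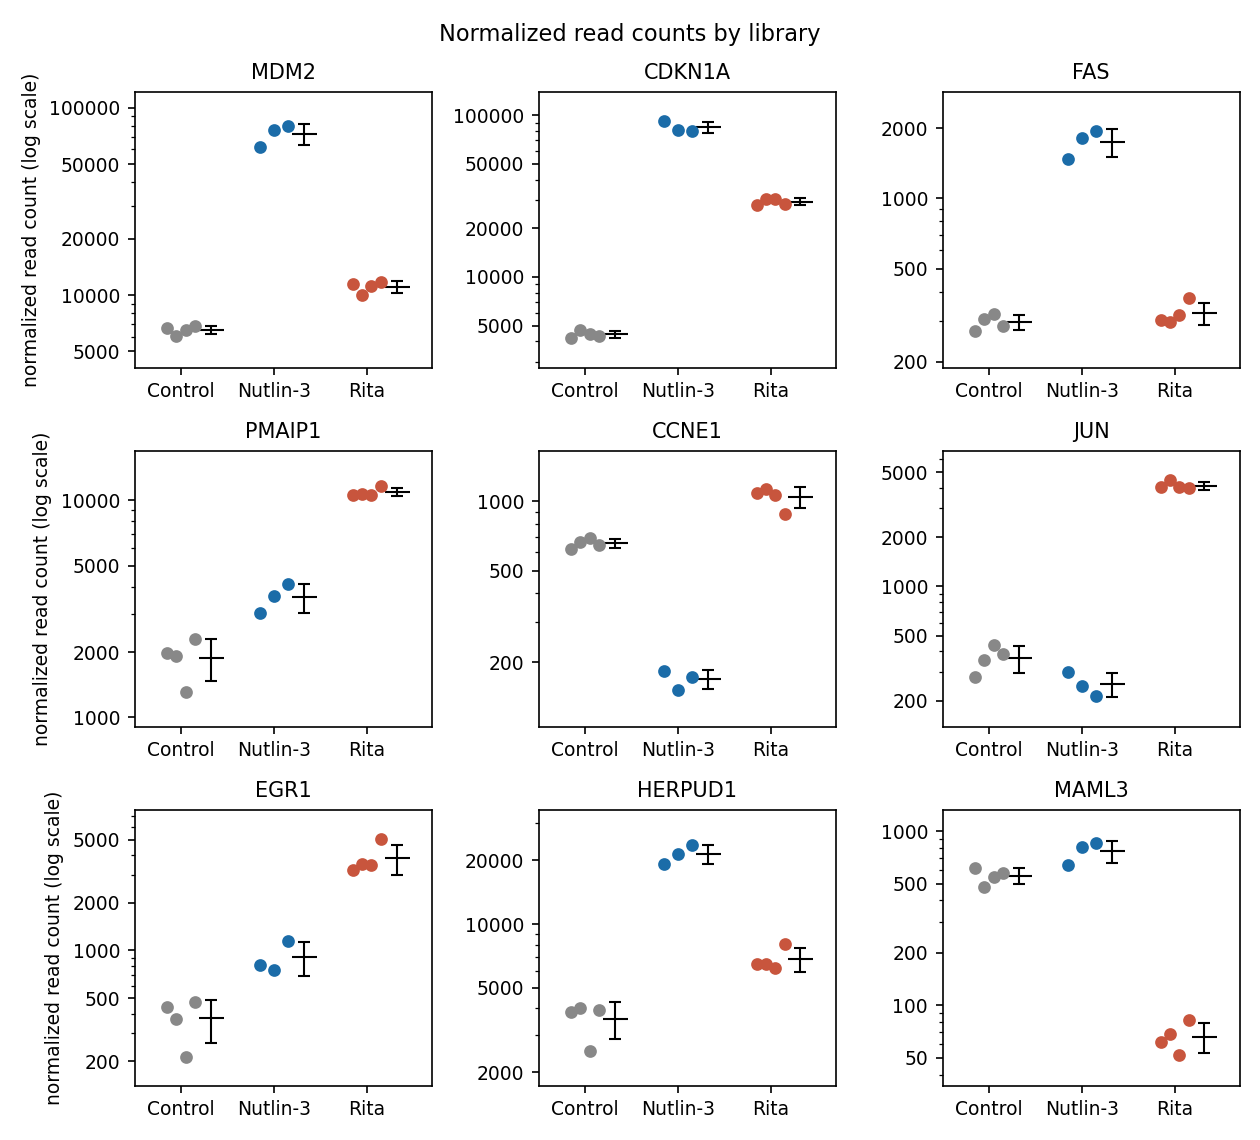
Normalized read count (log scale) of 9 genes in each Control, Nutlin-3 and Rita library (points), with the mean and SD of each group (bars). The Nutlin-3 and Rita points do not overlap in any panel. Over all rows tested, Nutlin-3 lay wholly above Rita in 24.3% and wholly below in 24.3%. MDM2, CDKN1A, FAS, HERPUD1 and MAML3 lie higher with Nutlin-3, and PMAIP1, CCNE1, JUN and EGR1 with Rita.

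Repair and metabolic targets of p53 were mostly higher with Nutlin-3: 22 of 33 tested members (24.8% of all rows) against 3 higher with Rita (26.4%), with a median of 0.50. SESN1, a sestrin that restrains mTORC1, read 1643, 1478 and 1457 against 707, 773, 730.2 and 667 (1.08 ± 0.17, adjusted p = 3.4e-06). Its paralogue SESN2 was not called (0.35 ± 0.22, adjusted p = 0.18). RRM2B, the p53-inducible ribonucleotide reductase subunit (1.10 ± 0.15), and POLH, the polymerase that bypasses ultraviolet lesions (1.13 ± 0.10), were each about as far apart as SESN1. XPC, which recognises bulky lesions, rose against Control with both drugs, by 1.42 and 1.10, and differed little between them (0.32 ± 0.08). GDF15, a secreted stress cytokine, read 39322, 25915 and 26021 with Nutlin-3 and 19143, 21057, 19581 and 16285 with Rita (0.66 ± 0.20, adjusted p = 0.006). Nutlin-3 replicate 1 was far above the other two, and without it the difference of 0.46 missed the threshold. ASCC3, a helicase subunit, read 13634, 15223 and 15251 with Nutlin-3, 5010.4, 4263, 4622 and 4384 with Rita and 10345, 8331, 10114 and 9625 in Control (1.69 ± 0.11, adjusted p = 4.9e-14), again with the Rita group below Control (-1.07).

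Over all 76 tested p53 targets of the 4 lists, 49 were higher with Nutlin-3 (24.8% of all rows) and 16 with Rita (26.4%). Their median was 0.60, against -0.03 over all rows. They are given here by the length of the gene. Among the 31 targets that span under 20 kb, 15 were higher with Nutlin-3 and 9 with Rita (median 0.27); their median difference from Control was 0.88 with Nutlin-3 and 0.93 with Rita. Among the 45 that span 20 kb or more, 34 were higher with Nutlin-3 and 7 with Rita (median 0.71), and the medians against Control were 0.62 and 0.07. The medians against Control were close for the short targets, and far apart for the long ones. These are medians of separate comparisons, and the median between the drugs was positive for both (0.27 and 0.71). For all rows that name 1 gene, the medians between the drugs were -0.24 (under 5 kb), -0.30 (5 to under 20 kb) and -0.12 (20 to under 50 kb). They were 0.15 (50 to under 100 kb), 0.55 (100 to under 250 kb) and 0.89 (250 kb or more). The median span of the long targets was 49.1 kb. The difference between short and long targets, and that between targets and other genes of like span, was not tested.

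Gene span went with the drug difference across the whole table. Span is the distance from start to end of a row on hg19, introns included. Rows that name 1 gene and span under 5 kb (n = 1450) had a median difference of -0.24, with 12.2% higher in Nutlin-3 and 34.5% in Rita. From 5 to under 20 kb the median was -0.30, and from 20 to under 50 kb it was -0.12. It turned positive from 50 to under 100 kb (0.15) and rose to 0.55 from 100 to under 250 kb, where 59.3% were higher with Nutlin-3 and 5.66% with Rita. In the 723 rows of 250 kb or more the median was 0.89, with 68.3% and 2.35%.

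Against Control the pattern lay in the Rita libraries. Median differences of Rita from Control went from 0.30 (under 5 kb) through 0.09 (20 to under 50 kb) to -0.85 (250 kb or more), while those of Nutlin-3 stayed between -0.06 and 0.07 in all 6 classes. In the longest class the 4 Rita libraries stood at -0.78, -0.90, -0.84 and -0.82 against the Control mean, and the Nutlin-3 libraries at -0.06, 0.14 and 0.10. The Nutlin-3 libraries did not share an order: in the shortest class replicate 1 was at 0.175, above its longest class, while replicates 2 and 3 were at -0.027 and -0.021, under theirs. Genes of 1 exon that span under 5 kb (n = 368 by GENCODE v29) had a median Nutlin-3 minus Rita difference of -0.09, and genes of several exons in the same class (n = 1007) had -0.29. The span, the number of exons and the level of a gene go together, and their separate parts were not tested.

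**Figure D2:**
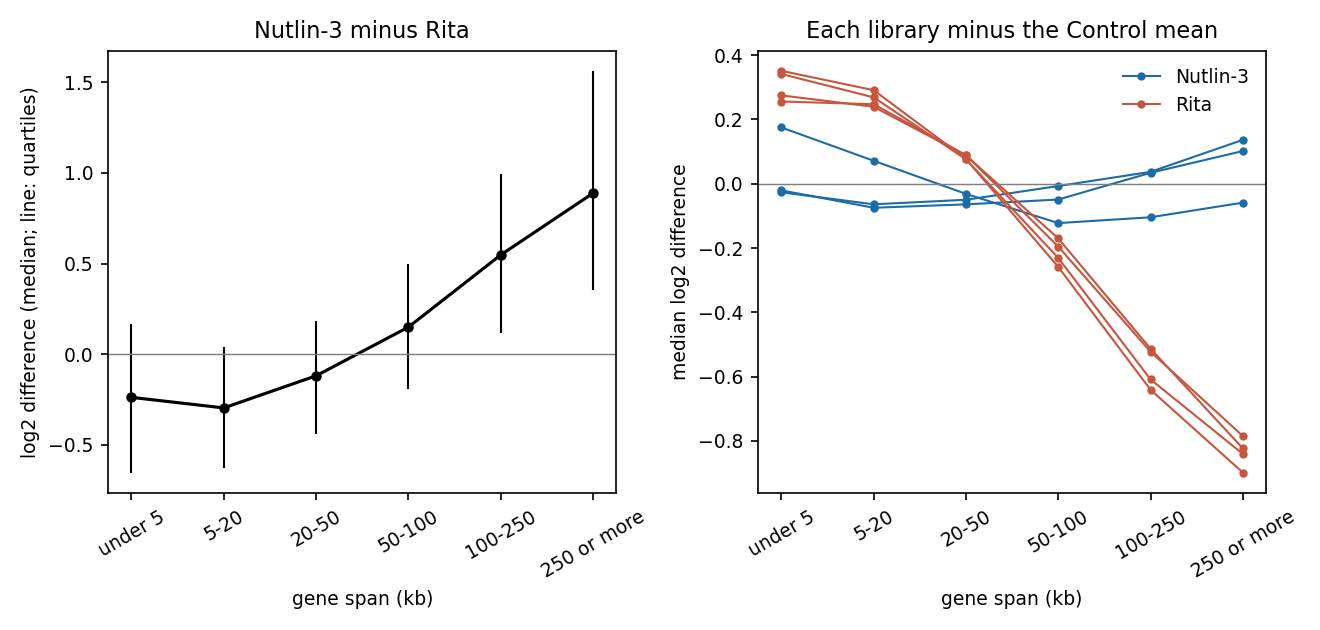
Median log2 difference of rows that name 1 gene, by gene span in kb: Nutlin-3 minus Rita with the quartiles of the genes as lines (left), and each Nutlin-3 (blue) and Rita (red) library minus the Control mean (right). The left curve goes from -0.24 to 0.89; on the right the 4 Rita libraries fall together to between -0.78 and -0.90 while the 3 Nutlin-3 libraries stay near 0.

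The largest differences followed the same order. Among called genes that averaged at least 50 and had separate groups, the 12 with the largest difference towards Nutlin-3 spanned 134 to 438 kb, and the 12 towards Rita spanned 2.33 to 45.6 kb. MAML3 and MAML2, coactivators of Notch signalling that span 438 and 367 kb, read 641, 813 and 853 against 61.9, 68.1, 51.9 and 82.7 (3.53 ± 0.18, adjusted p = 3.9e-16) and 275, 463 and 391 against 20.1, 32.5, 35.4 and 44 (3.49 ± 0.28, adjusted p = 1.6e-11). The Control levels, 611, 478, 547 and 577 for MAML3, were near those of Nutlin-3. The same was true of PDE7B, a phosphodiesterase (3.29 ± 0.18; 0.01 against Control with Nutlin-3 and -3.28 with Rita), and of ZNF804A, a zinc finger gene (3.23 ± 0.14; 0.21 and -3.02). RGL1, which encodes an exchange factor for Ral, read 521, 835 and 920.4 against 21.8, 6.05, 7.86 and 49.2, with Control at 199, 175, 197 and 206, so it stood above Control with Nutlin-3 and below it with Rita (5.50 ± 0.50, adjusted p = 1.5e-10). Other large differences were of genes that rose with Nutlin-3 and stayed level with Rita. INPP5D (SHIP1), a phosphatase of inositol lipids, read 798, 635 and 784 with Nutlin-3, 72.4, 64.3, 59.7 and 71.2 with Rita and 59.8, 48, 35.8 and 58 in Control (3.44 ± 0.30, adjusted p = 7.4e-11). WDR63, a dynein-associated protein, differed likewise (4.13 ± 0.44; 4.12 and -0.01 against Control).

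DNA replication genes were lower with Nutlin-3 than with Rita. Of 30 tested members 24 were higher with Rita, 2 with Nutlin-3 (1 without Nutlin-3 replicate 2) and 4 were not called, with a median of -0.60. Over all rows 26.4% were higher with Rita and 24.8% with Nutlin-3. The median against Control was -0.51 with Nutlin-3, with 23 members that fell and 2 that rose (over all rows, 20.7% fell and 18.5% rose), and 0.14 with Rita, with 9 that rose and 4 that fell (25.8% and 26.3%). The cyclins that start S phase were the farthest apart in the list. CCNE1, cyclin E1, read 183, 151 and 173 with Nutlin-3, 1090.4, 1126, 1069 and 884 with Rita and 622, 663, 695 and 644 in Control, so that Nutlin-3 lay below and Rita above untreated cells (-2.62 ± 0.09, adjusted p = 1.4e-19). CCNE2 read 135, 190.0 and 209 against 1021, 936, 992 and 1158 (-2.54 ± 0.17, adjusted p = 3.2e-13). E2F1, a transcription factor of the E2F family, read 1149, 1073 and 1268 with Nutlin-3 and 3428, 3385, 3665 and 3853 with Rita (-1.62 ± 0.08, adjusted p = 3.9e-16). CDT1, which loads the MCM helicase on origins, read 2254, 1328 and 1256 against 4477, 4393, 4121 and 3949 (-1.44 ± 0.14, adjusted p = 7.5e-10), with Nutlin-3 replicate 1 nearest to the Rita libraries. MCM2 and MCM6 of that helicase (-1.17 ± 0.10 and -0.76 ± 0.07) and CDC25A, the phosphatase that activates CDK2 (-1.10 ± 0.09), were higher with Rita as well. PCNA, the sliding clamp and itself a p53 target, read 29912, 27679 and 27535 against 29767, 29914, 28689 and 28309.6 and was not called (-0.04 ± 0.08, adjusted p = 0.71). TYMS, thymidylate synthase, was higher with Nutlin-3 (0.31 ± 0.07).

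Many promoters of this list hold the binding motif of E2F, and 4 are shown, all of genes that were higher with Rita. The promoter of TYMS, which was higher with Nutlin-3, also held a site in the 120 bases before its start and is not printed. In the RefSeq table of GRCh38.p14, 21 of the 30 genes had a promoter with a single start. TTTCCCGC or TTTGGCGC on either strand, with overlapping matches counted separately, lay in the 250 bases before the start in 12 of these 21 (57.1%), against 1.91% of all 22114 promoters and 3.10% of 6926 tested genes. The last 120 bases before the start follow 5′ to 3′ on the gene's strand, with the site in capitals.
E2F1: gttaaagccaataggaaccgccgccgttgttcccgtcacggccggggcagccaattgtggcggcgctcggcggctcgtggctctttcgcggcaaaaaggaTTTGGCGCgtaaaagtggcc
CDT1: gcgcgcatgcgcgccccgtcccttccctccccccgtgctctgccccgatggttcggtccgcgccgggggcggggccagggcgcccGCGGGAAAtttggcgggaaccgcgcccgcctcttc
CDC25A: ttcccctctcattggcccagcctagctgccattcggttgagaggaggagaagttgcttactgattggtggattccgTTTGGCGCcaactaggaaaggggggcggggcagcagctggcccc
MCM6: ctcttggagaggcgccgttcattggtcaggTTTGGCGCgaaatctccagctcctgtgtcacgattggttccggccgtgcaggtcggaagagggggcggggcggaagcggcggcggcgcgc
They lie at chr20:33686386-33686505 (minus strand), chr16:88803669-88803788 (plus strand), chr3:48188418-48188537 (minus strand) and chr2:135876444-135876563 (minus strand). In CDT1 the site reads GCGGGAAA, the reverse complement of TTTCCCGC. Within the list, genes with and without the motif lay on the same side. Of the 12 with it, 9 were higher with Rita and 2 with Nutlin-3 (median -0.39), and of the 9 without, 8 were higher with Rita and 0 with Nutlin-3 (median -0.65; 0 by limma also at an unadjusted p, and 0 by edgeR and DESeq2). Outside the list, the 203 tested genes with a site had a median of -0.07, against -0.05 for 6702 without. A match of these letters is a description of the sequence and not a bound site.

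Mitotic genes had a median on the other side of 0 (0.12), with 10 of 23 higher with Nutlin-3 (24.8% of all rows) and 4 with Rita (26.4%). The groups overlapped in 13 of the 23, and in 8362 of all 16259 rows. The count of 10 fell to 5 without Nutlin-3 replicate 2 and to 6 without Rita replicate 3. The difference between the mitosis and DNA replication lists was not tested.

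Immediate early genes are the first to be transcribed after a growth or stress signal, and the AP-1 genes among them were much higher with Rita. JUN (chromosome 1, 59246465 to 59249785), a subunit of the factor AP-1, read 300.2, 246 and 214 with Nutlin-3 and 4047, 4453, 4033 and 3979.6 with Rita. The Nutlin-3 values lay within or under the Control range (278, 353, 437 and 385), and the gap was 16.4-fold (-4.03 ± 0.12, adjusted p = 2.7e-21). Its partner FOS read 205, 152 and 266 against 2142, 2704, 2481 and 2055 (-3.52 ± 0.22, adjusted p = 4.3e-14), and FOSB read 33.8, 37.7 and 31.4 against 553, 708, 625 and 663 (-4.17 ± 0.32, adjusted p = 4.1e-12). EGR1, a zinc finger factor of the serum response, read 815, 749 and 1155 against 3226, 3517, 3479.6 and 5050.2, with Rita replicate 4 well above the other three (-2.08 ± 0.21, adjusted p = 1.7e-09). Unlike the AP-1 genes it also rose with Nutlin-3, by 1.31 against Control (441, 371, 214 and 470.3). ATF3, a stress-induced repressor, read 412, 496 and 482 against 3179, 3247, 2946 and 2509 (-2.68 ± 0.27, adjusted p = 1.3e-09), and HBEGF, a ligand of the epidermal growth factor receptor, read 188, 190.0 and 134 against 1715, 2032, 1794 and 1492 (-3.37 ± 0.18, adjusted p = 9.3e-16).

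Of 38 tested members of the list, 23 were higher with Rita (26.4% of all rows), 6 with Nutlin-3 (24.8%) and 9 were not called, with a median of -0.52. The median span of the members was 6.72 kb. Of all rows that name 1 gene and span 5 to under 20 kb, 44.9% were higher with Rita and 10.1% with Nutlin-3 (median -0.30). The part of span in this list was not tested. The count of 6 fell to 3 without Nutlin-3 replicate 1, without Nutlin-3 replicate 3 and with no filter on low values. MYC differed less than the AP-1 genes (-0.54 ± 0.07). Of the 6 members higher with Nutlin-3, those by at least 1 were KLF2, a Krüppel-like factor (795, 679.9 and 493 against 202, 168, 252 and 228; 1.61 ± 0.31), KLF6 (1.25 ± 0.13) and SPRED2, an inhibitor of the Ras to ERK pathway (1.52 ± 0.16). Serum response factor binds the CArG box, and EGR1 is shown because it was the 1 gene of 20 matched to a promoter of a single start that held this motif in the 250 bases before it; 1.12% of all promoters did. The 120 bases before its start, at chr5:138465359-138465478 (plus strand, GRCh38.p14), hold 2 CArG boxes, in capitals.
EGR1: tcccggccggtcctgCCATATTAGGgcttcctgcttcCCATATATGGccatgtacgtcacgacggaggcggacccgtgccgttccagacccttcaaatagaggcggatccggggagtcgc

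**Figure D3:**
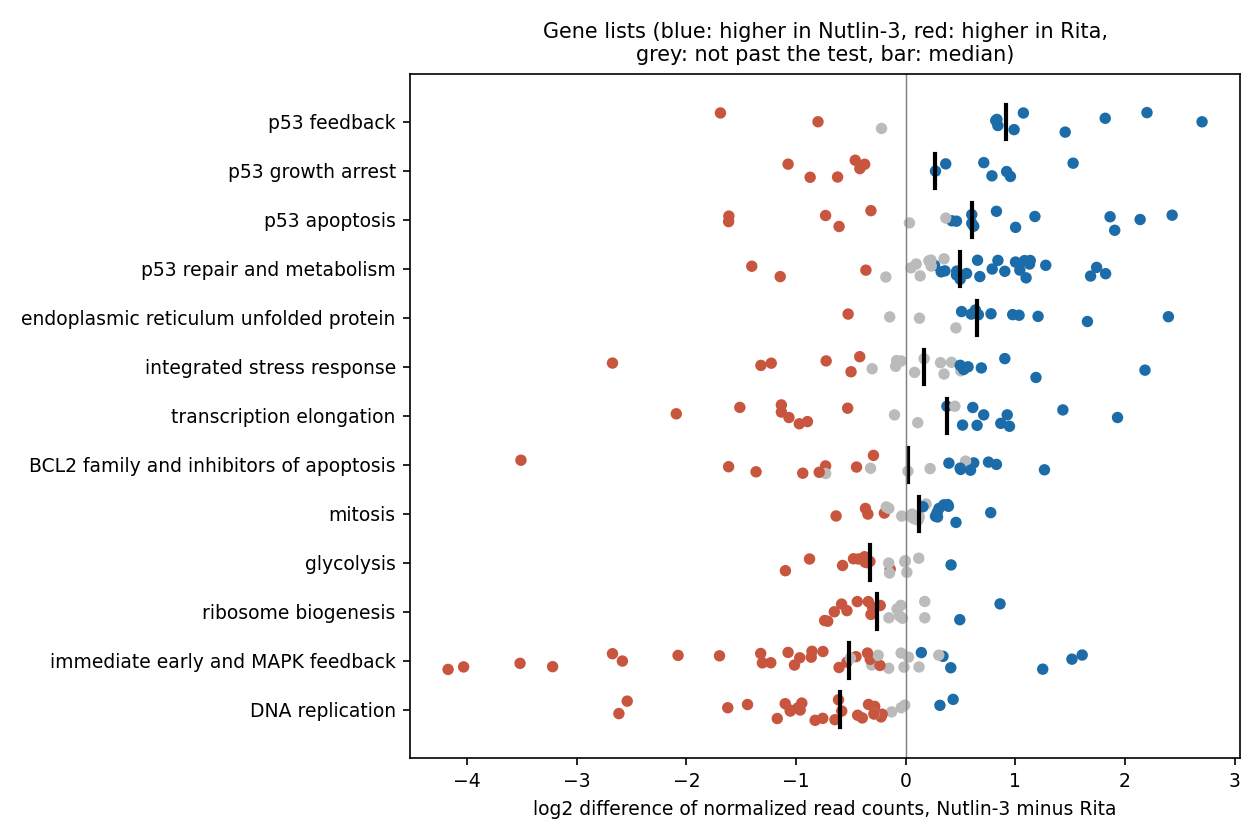
Log2 difference, Nutlin-3 minus Rita, of each tested gene of 13 lists (points; blue higher with Nutlin-3, red higher with Rita, grey not called) with the median of the list (black bar). The medians go from 0.91 (p53 feedback) to -0.60 (DNA replication), and the 4 p53 lists and the endoplasmic reticulum list lie to the right.

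The stress programme of the endoplasmic reticulum was higher with Nutlin-3. Of 14 genes of the unfolded protein response of the endoplasmic reticulum, 10 were higher with Nutlin-3 and 1 with Rita (2 without Nutlin-3 replicate 1), with a median of 0.65. The shares over all rows were 24.8% and 26.4%. HERPUD1, which takes part in the disposal of misfolded proteins, read 19218, 21454 and 23699 against 6451, 6479.5, 6231 and 8090.1 (1.66 ± 0.13, adjusted p = 4.9e-12). DNAJB9 (ERdj4), a co-chaperone of BiP, read 2539.8, 2895 and 3208 against 536, 531, 520.3 and 591 (2.40 ± 0.12, adjusted p = 2.4e-16). HSPA5, which encodes BiP, the main chaperone of the compartment, read 173791, 182444 and 189841 against 110246, 104342, 105217 and 104573 (0.78 ± 0.07, adjusted p = 5.2e-11). The groups did not overlap for any of these genes, as was the case with Nutlin-3 above Rita in 24.3% of all rows.

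The integrated stress response, which acts through the factor ATF4 when translation initiation is slowed, did not stand out between the drugs: 7 of 23 members were higher with Nutlin-3 and 6 with Rita (median 0.17), near the shares over all rows (24.8% and 26.4%). Its median against Control was 0.70 with Nutlin-3 and 0.92 with Rita. ATF4 (0.08 ± 0.08), DDIT3 (CHOP), a death-linked factor (-0.31 ± 0.27), and CHAC1, which degrades glutathione (0.50 ± 0.38), were not called between the drugs. NUPR1, a stress-induced chromatin protein, read 1704, 1399.9 and 1542 with Nutlin-3 and 277, 377, 369 and 344 with Rita (2.18 ± 0.26, adjusted p = 3.0e-08). PPP1R15A (GADD34), which reverses the translation block, read 2298, 2571 and 2016 against 5392, 5405, 5118 and 5471 (-1.23 ± 0.17, adjusted p = 8.1e-07), and PCK2, a mitochondrial enzyme of gluconeogenesis, was likewise higher with Rita (-1.32 ± 0.15). Control replicate 3 lay under the other Control libraries for several of these genes (CHAC1 at 3164, 3369, 710.1 and 3114). This touches comparisons with Control, and also the standard errors between the drugs, since all 8 groups share a single fit. With only the groups compared, CHAC1 was called between the drugs at the same difference (0.50, adjusted p = 0.0015 by limma).

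The machinery of transcription elongation was divided by gene. POLR2A (chromosome 17, 7387675 to 7417935), the largest subunit of RNA polymerase II, read 8138, 7547 and 7263 with Nutlin-3, 34221, 32193, 31557 and 32490.2 with Rita and 11824, 9912, 10449 and 11184 in Control (-2.09 ± 0.09, adjusted p = 1.2e-17). CDK9 and CCNT1, the kinase and cyclin of P-TEFb, which releases paused polymerase, were higher with Rita (-0.97 ± 0.09 and -1.07 ± 0.20). HEXIM1, which holds P-TEFb inactive, read 7836, 7398 and 7910.2 against 13041, 13456, 13917 and 17386 (-0.90 ± 0.08, adjusted p = 3.8e-10), and BRD2, a bromodomain protein that binds acetylated histones, read 8788, 11189 and 12295 against 27618, 27482, 29149 and 38651 (-1.51 ± 0.11, adjusted p = 2.5e-12). MLLT3 and AFF1, which join P-TEFb in the super elongation complex, were higher with Nutlin-3, MLLT3 at 838, 1010.2 and 909.5 against 235, 223, 239.7 and 262 (1.93 ± 0.13, adjusted p = 2.5e-13) and AFF1 by 1.43 ± 0.26. These span 281 and 206 kb, while BRD2, HEXIM1 and CDK9 each span under 20 kb. POLR2A, higher with Rita, spans more than 20 kb by the positions above, and the part of span in this list was not tested. In all, 10 of 21 members were higher with Nutlin-3 (24.8% of all rows) and 8 with Rita (26.4%), with a median of 0.38.

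Of the other lists, glycolysis had 10 of 17 members higher with Rita and 1 with Nutlin-3 (median -0.33), ribosome biogenesis 11 of 20 and 2 (-0.26), and cytosolic ribosomal proteins 8 of 22 and 0 (-0.12). By limma at an unadjusted p, edgeR and DESeq2 the last count was 0 as well. Without Nutlin-3 replicate 1 or Rita replicate 4, 4 ribosome biogenesis genes were higher with Nutlin-3, and without Nutlin-3 replicate 3, 5 ribosomal protein genes were higher with Rita. Genes tied to parthanatos, the cell death that follows overactive PARP1, had 6 of 11 higher with Rita and 2 with Nutlin-3 (-0.30). NMNAT1, the nuclear enzyme of NAD synthesis, read 201, 144 and 219.8 against 588, 589, 564 and 628 (-1.67 ± 0.13, adjusted p = 1.2e-11), and PARP1 itself differed slightly (-0.30 ± 0.06). Kinases and crosslink repair genes of the DNA damage response had 7 of 22 higher with Rita and 4 with Nutlin-3 (-0.08). Over all rows the shares were 26.4% with Rita and 24.8% with Nutlin-3. H2AFX, the gene of the histone variant that is phosphorylated at DNA breaks, was higher with Rita (-1.25 ± 0.14), and ATM, the kinase of double-strand breaks, with Nutlin-3 (0.68 ± 0.16).

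NRF2 targets had 7 of 21 higher with Nutlin-3 and 4 with Rita (0.03; 2 with Rita without Nutlin-3 replicate 3), among them HMOX1, heme oxygenase (10494, 7892 and 7020.0 against 3125, 3183, 3351 and 2902; 1.41 ± 0.14), and TXNRD1, thioredoxin reductase (1.06 ± 0.11). Aryl hydrocarbon receptor genes had 2 of 9 higher with each drug (0.01): CYP1A1 was higher with Nutlin-3 (1.47 ± 0.37) and CYP1B1 with Rita (-0.63 ± 0.16). The Rita count of this list was 1 with any library but Rita replicate 2 left out, with a pseudocount of 0.5, with no filter, with a mean of at least 50, with the same total and with the replicate block. NF-kB genes had 6 of 19 higher with each (0.02), the hypoxia response 2 of 20 with Nutlin-3 and 4 with Rita (-0.10), heat shock 4 of 12 and 3 (0.15), cholesterol synthesis 4 of 17 and 1 (0.09), and metallothioneins 0 of 8 and 2 (-0.34; 0 higher with Nutlin-3 also at limma's unadjusted p and by edgeR and DESeq2). The counts of these lists stand beside shares over all rows of 24.8% higher with Nutlin-3 and 26.4% with Rita, and several are near them. Several of the small list counts rested on 1 library. For heat shock they were 2 and 1 without Nutlin-3 replicate 3, and the Rita count was 1 without Nutlin-3 replicate 2 or Rita replicate 3, with no filter and with the same total. For cholesterol synthesis the Nutlin-3 count was 2 without Nutlin-3 replicate 2 or 3 or Rita replicate 3 or 4, and the Rita count was 2 without Nutlin-3 replicate 3 or Rita replicate 4. TXNIP, a glucose-responsive inhibitor of thioredoxin, was close to the threshold (0.41 ± 0.17, adjusted p = 0.048) and missed it in 8 of 17 alternative settings.

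FAM71A and C1orf116 were nearly silent with Nutlin-3 but not with Rita. FAM71A had no read in any Nutlin-3 or Control library and read 265, 289, 321 and 254 with Rita, at least 301-fold above the level that 3 reads over the 3 Nutlin-3 libraries would give (0.938). Its row lies 3.67 kb past the end of ATF3 on chromosome 1 in the table. ATF3 itself was higher with Rita, and whether reads of the FAM71A row run on from ATF3 was not tested. C1orf116 read 0, 0 and 7.25 with Nutlin-3 and 264, 303, 261 and 283 with Rita; with 6 reads in all behind the Nutlin-3 values, no fold is given. ZNF425, a zinc finger gene, was low rather than silent with Nutlin-3, at 50.7, 23.3 and 58 against 538, 565, 531 and 453 (-3.63 ± 0.27, adjusted p = 2.2e-12).

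The same drugs were also compared in cells that carried B87+DMKG, in 8 libraries that the direct contrast does not use. There 7856 rows differed (48.3%). Of the 8321 rows called for the drugs alone, 4820 were called in both, 3972 in the same direction, which is 47.7% of the calls alone and 50.6% of those with B87+DMKG, and 848 in the opposite one. Across the 16259 rows, which are not independent, the differences correlated at r = 0.541. The difference between the contrasts, tested as an interaction, was called in 5949 rows (36.6%).

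The gap in p53 targets was smaller there. MDM2 read 14808, 15651, 12768 and 14618 with B87+DMKG+Nutlin-3 and 8017, 7555, 8161 and 7154 with B87+DMKG+Rita, a difference of 0.90 in place of 2.70 (interaction 1.80 ± 0.13, adjusted p = 1.1e-12). CDKN1A (0.48 in place of 1.53), FAS (0.94 in place of 2.43) and BBC3 (-0.11 in place of 0.83) shrank as well, by interactions of 1.05 ± 0.14, adjusted p = 7.6e-07, 1.49 ± 0.20, adjusted p = 4.7e-07 and 0.94 ± 0.27, adjusted p = 0.0062. BTG2 turned over: it read 5382, 4615, 5099.6 and 4973 against 11147, 9058, 10160.4 and 10738 (-1.03; interaction 1.99 ± 0.14, adjusted p = 2.1e-12). TP53INP1 lost its gap, at -0.21 (interaction 2.41 ± 0.26, adjusted p = 6.1e-09). Over the 76 p53 targets the median was -0.05 with B87+DMKG, with 18 higher with Nutlin-3 (23.8% of all rows) and 26 with Rita (24.5%), against 0.60 for the drugs alone. PMAIP1 held its direction and widened, from -1.62 to -2.91 (interaction 1.29 ± 0.22, adjusted p = 3.0e-05). For GDF15 the interaction was not called (0.02 ± 0.27, adjusted p = 0.97).

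JUN and EGR1 lost most of their gap. JUN read 4594, 4685, 4960.1 and 4637 against 6955, 6022, 7094 and 7158 (-0.53; interaction -3.51 ± 0.16, adjusted p = 9.1e-17), with both groups far above the Control range. EGR1 read 19475, 18470.2, 20566 and 17878 against 18212, 17392, 16777 and 17383 (0.13; interaction -2.21 ± 0.29, adjusted p = 3.6e-07), and FOS went from -3.52 to -0.78 (interaction -2.73 ± 0.30, adjusted p = 1.1e-08). ATF3 stood at -1.76, with an interaction at the edge of the threshold (-0.92 ± 0.37, adjusted p = 0.05) that missed it in 17 of 25 alternative settings, and HBEGF stood at -3.41 (interaction 0.04 ± 0.24, adjusted p = 0.91). CCNE1 and E2F1 stayed higher with Rita, at -1.95 and -0.80 (interactions -0.66 ± 0.13, adjusted p = 9.7e-05 and -0.82 ± 0.11, adjusted p = 5.1e-07). The median of the 30 DNA replication genes was -0.01, with 5 higher with Nutlin-3 (23.8% of all rows) and 8 with Rita (24.5%). HERPUD1 turned over to -0.80 (interaction 2.46 ± 0.17, adjusted p = 1.1e-12).

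Long genes kept their side, with smaller medians. The medians by span with B87+DMKG went from -0.08 (under 5 kb) to 0.28 (100 to under 250 kb) and 0.50 (250 kb or more), beside -0.24, 0.55 and 0.89 for the drugs alone. The change in these medians was not tested. MAML3 read 318, 416, 290.1 and 336 against 22.8, 34, 17.1 and 24.9, a difference of 3.76 beside 3.53 alone (interaction -0.23 ± 0.24, adjusted p = 0.49), and RGL1 stood at 4.72 beside 5.50 (interaction 0.78 ± 0.68, adjusted p = 0.39). FAM71A again had no read in any of the B87+DMKG+Nutlin-3 libraries and read 589.8, 350.2, 553 and 623 with B87+DMKG+Rita.

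**Figure D4:**
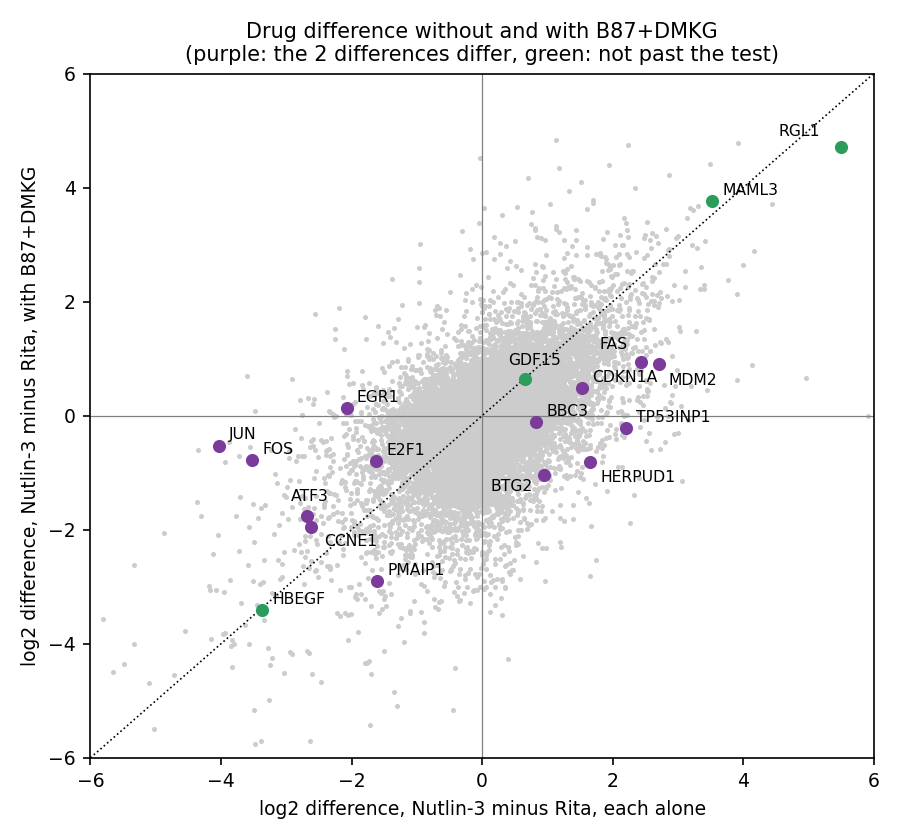
Log2 difference, Nutlin-3 minus Rita, with each drug alone (horizontal) and with B87+DMKG (vertical) for the tested rows (grey; 5 rows lie outside the frame of -6 to 6) and 18 chosen genes, purple where the interaction was called and green where it was not. MDM2, FAS and TP53INP1 lie under the dotted line of equal values, JUN, FOS and EGR1 lie above it, and MAML3 and HBEGF lie beside it.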

How the data were processed

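Libraries of H460 poly(A) RNA were made with a stranded mRNA kit, per the labels. The submitters' processing notes list FastQC, Picard, SAMtools, STAR 2.4.0 and DESeq2; which counter was used, and whether with strand, is not given in the sources used here. These notes state mm10, while the column of positions in the table is marked hg19 and the genes are human, so its positions are printed as hg19. The deposited signal is a read count per gene row divided by 1 factor per library by the authors; this was read from the values, which are whole multiples of 1 step in each column. Whole reads were recovered by that step. Among recovered counts below 1000, 55.8% to 59.2% were even, so a count may be a read end.

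Of 74834 rows in 31 columns, 51656 carry no symbol (2416 tested) and 1043 combine names (823 tested). The 16259 rows averaging at least 10 were tested in R 4.3.3 with limma 3.58.1 (eBayes with trend; 23 residual and 7.14 prior degrees of freedom) on log2(normalized value + 1), all 8 groups in a single fit. As alternatives, the pseudocount was set to 0.5 or 5 and the minimum average to 50 or dropped; others were quantile normalization; equal library totals; a fit of the compared groups alone; a block for the replicate number; each library left out; and the count models edgeR 4.0.16 and DESeq2 1.42.0, run on recovered reads without 2 libraries (of B87+DMKG and B87+DMKG+Nutlin-3) whose step was too near 1 to be checked. The fit was tested on simulated data.

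The comparison, its members and the 27 gene lists were chosen with earlier results of these data known; of 521 list symbols, 474 matched 1 row and 442 were tested. Named genes were the 12 largest differences in each direction (average of at least 50, groups not overlapping), up to 4 called members per list and a fixed set, 133 in all; the text prints a selection of them, together with list members chosen after their values were seen. The level of 1 named gene is not reported here. Promoter sequences are from RefSeq (GRCh38.p14), for genes with a single start.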

Additional observations from a re-analysis of the deposited data

Results flagged for a closer look

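In 89 sets of 4 Rita values checked (88 genes of the text and the mitochondrial share), 8 had 1 library apart from the other three by Dixon's 95% criterion; chance gives about 1 in 20. Rita replicate 4 was the library in 6 of them. Its mitochondrial share was 4.76%, against 2.69% to 2.93%, and it read highest for GADD45A (13626 against 10160 to 10194), PMAIP1 (11624 against 10614 to 10725), EGR1 (5050 against 3226 to 3517), HERPUD1 (8090 against 6231 to 6480) and BRD2 (38651 against 27482 to 29149). Rita replicate 2 read 4453 for JUN (3980 to 4047 in the others), and Rita replicate 1 read 110246 for HSPA5 (104342 to 105217). Without Rita replicate 4 each of these genes stayed called in the same direction.

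The drug difference was not the same without and with B87+DMKG: the interaction, tested by limma, was called in 5949 rows. Of 18 genes chosen after their values were seen, 14 were called, beside 36.6% of all rows. Because of that choice the count is not a result about a set. Larger differences towards Nutlin-3 for the drugs alone were found for MDM2 (1.80), CDKN1A (1.05), BTG2 (1.99), FAS (1.49), TP53INP1 (2.41), BBC3 (0.94) and HERPUD1 (2.46). PMAIP1 had a positive interaction (1.29), since its gap towards Rita was wider with B87+DMKG. Larger differences towards Rita for the drugs alone were found for JUN (-3.51), FOS (-2.73), EGR1 (-2.21), ATF3 (-0.92; not called in 17 of 25 alternatives), CCNE1 (-0.66) and E2F1 (-0.82).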

How the results depend on the processing

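The count of rows called between Nutlin-3 and Rita (8321) stayed within 1.5 times of its value in all 17 alternatives: 6927 to 8629 with 1 library left out and 7553 to 8789 otherwise (edgeR 8539, DESeq2 8789). So did the count by at least 1 (2478; 1678 to 3034), and those of the other comparisons. Same-numbered libraries did not deviate together (correlations of 0.081, -0.062 and -0.076 for Nutlin-3 with Rita), so the numbers are not taken as pairs; with the replicate number as a block 8204 rows were called. Of 1493 checks of the 88 genes named in the text, 1473 kept direction and call; 15 missed the threshold (TXNIP, BTG1, GDF15, TNFRSF10B), 3 passed it with only the groups compared (SESN2, MCL1, CHAC1), and PCNA, not called, changed sign with quantile normalization (0.0157) and the same total (0.00622). Medians near 0 changed sign: with quantile normalization BCL2 family (-0.0575), NF-kB (-0.0575) and aryl hydrocarbon receptor (-0.0243); with 1 library left out they spanned -0.0959 to 0.167, -0.105 to 0.356 and -0.0549 to 0.0411, and NRF2 targets -0.0124 to 0.0509. The interactions of GDF15 (-0.0541 quantile, -0.0341 same total, -0.183 to 0.118 with 1 library left out) and HBEGF (-0.142, -0.00861, -0.0435 to 0.207) changed sign and were called in none of these; the cause was not tested. Genes with few reads, such as BIK, are limited by depth.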
